A study of Mus musculus with 12 samples.

Results

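TRAJ segments are the joining segments of the T cell receptor alpha chain (TRA), and their use was described here along the alpha locus of sorted mouse CD8+ T cells. The members were all J segments named TRAJ in the deposited receptor table, read from the TRA with the most unique molecular identifiers (UMIs) in each cell of the deposited cell table. There were 43 such segments among the 166 V and J segments of both chains, and they were read from 66136 of 100540 cells. Numbers fall along the locus: high numbers lie at the 5′ end, next to the V segments (TRAV), and low numbers at the 3′ end.

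The cells came from spleens of wild-type C57BL/6 mice, whose age the labels do not give. In all, 5 mice received an antibody to CD137 (a costimulatory receptor of activated T cells; clone 3H3, 10 µg) and 10 mice a control immunoglobulin (Ig; clone HRPN, 100 µg), both on 2 days a week for 14 days. High CD44, a marker of antigen experience, was common to all sorted cells. The effector sort (Teff) was negative for PD1. Both other sorts were PD1+, the precursor exhausted one (Tpex) with Slamf6 but not Tim3, and the exhausted one (Tex) with Tim3 but not Slamf6. Each subset and treatment gave 1 library of transcripts and 1 of receptors, so that 12 samples made 6 groups of 1 library. The labels do not tie cells to single mice, the sorted types were not checked against marker genes because no gene values were used here, and no difference between libraries has a replicate check.

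In a developing T cell, the alpha locus joins a TRAV to a TRAJ, and trimming and added bases at the joint make the CDR3, the loop that contacts antigen. An alpha gene can be rearranged more than once. A first joint uses a J at the 5′ end, and a later one joins a V further upstream to a J further downstream, deleting what lay between. TRAJ position is therefore often read as a record of how far a locus had gone. The beta chain (TRB) sits on another chromosome and is joined before alpha.

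The joining segments lay on the plus strand of chromosome 14 of mm10, from 54155005 for TRAJ61 to 54218842 for TRAJ1, a stretch of 63.837 kb. The annotation lists 60 of them, 51 as J genes and 9 as pseudogenes. None of the 9 pseudogenes was found in a cell. Of the 51 J genes, 43 were found, and the 8 that were found in 0 cells and 0 contigs were TRAJ59, TRAJ46, TRAJ41, TRAJ29, TRAJ25, TRAJ20, TRAJ19 and TRAJ3. Used germline segments were 57 to 66 bases long. A J chain's framework starts with phenylalanine, glycine, any residue and glycine, and the codons for these were searched on the coding strand as TTT or TTC, then GGN, NNN and GGN, in frame with the annotated 3′ end. They were found in 39 of the 43 used segments, in 1 of the 8 unused J genes and in 1 pseudogene, which is 68.3% of all annotated TRAJ. In the other 4 used segments the first codon was TGG, for tryptophan, in TRAJ38 and TRAJ33, or TTG, for leucine, in TRAJ44 and TRAJ7. With TGG or TTG also allowed as the first codon before GGN, NNN and GGN, all 43 used segments held a match, as did 2 of the 8 unused J genes, TRAJ46 and TRAJ25, and 2 of the 9 pseudogenes, TRAJ55 and TRAJ54. A match is a description of the letters, not a test of function, and the recombination signals next to the segments were not analysed here.

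The germline segments on which the results turn are shown from the GENCODE transcripts on mm10, with the 4 framework codons in capitals. TRAJ58 and TRAJ2 are the outermost segments in use, TRAJ22, TRAJ26, TRAJ30 and TRAJ31 are among the most used, TRAJ43 carries the largest clone, TRAJ33 has tryptophan, and TRAJ25 holds the codons but was in 0 cells.
TRAJ58: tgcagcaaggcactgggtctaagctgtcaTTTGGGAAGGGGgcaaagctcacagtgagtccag
TRAJ43: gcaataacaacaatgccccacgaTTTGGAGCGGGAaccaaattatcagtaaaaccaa
TRAJ33: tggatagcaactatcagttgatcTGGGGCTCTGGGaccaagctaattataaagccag
TRAJ31: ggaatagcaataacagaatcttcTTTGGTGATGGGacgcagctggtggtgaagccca
TRAJ30: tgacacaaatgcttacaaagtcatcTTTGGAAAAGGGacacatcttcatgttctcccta
TRAJ26: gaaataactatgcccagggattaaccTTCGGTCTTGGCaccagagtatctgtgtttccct
TRAJ25: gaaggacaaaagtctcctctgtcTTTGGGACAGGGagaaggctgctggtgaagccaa
TRAJ22: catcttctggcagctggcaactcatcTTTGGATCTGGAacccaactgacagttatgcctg
TRAJ2: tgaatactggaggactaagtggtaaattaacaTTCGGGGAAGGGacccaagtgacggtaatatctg
The names in the receptor table could be checked against these letters. The framework after the CDR3 equalled the germline 3′ end of the named segment in 99.9% of cells.

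A cell's TRA was read from a median of 4 UMIs in both Teff libraries, 5 in control and 2 in anti-CD137 Tpex, and 6 in control and 4 in anti-CD137 Tex. The anti-CD137 Tpex library stood apart. A TRA was found in 34.5% of its cells against 48.4 to 79.1% in the other libraries, and 23.8% of its TRA rested on 1 UMI against 2.71 to 11.4%. Within libraries, median TRA UMIs differed by at most 1 between zones of the locus. A clonotype was a pair of TRA and TRB nucleotide CDR3s within a library. There were 17056 clonotypes in control and 19628 in anti-CD137 Teff, 5363 and 3563 in Tpex, and 1123 and 1322 in Tex. Of 63752 distinct barcodes, 2336 occurred in at least 2 libraries, and 1 of these had the same TRA in them. Shares have exact Clopper-Pearson 95% intervals, and differences have intervals built from these. They cover counting error only, and members of 1 clone are counted as if they were separate. Clonotypes with the same TRA but different TRBs are also counted separately. Counting each TRA once left 2733 for anti-CD137 Tpex, relative to its clonotypes the largest drop of the 6 libraries. The control Tpex library kept 5114, the Teff libraries 15953 (Ig) and 18356 (anti-CD137), and the Tex libraries 1091 (Ig) and 1176 (anti-CD137). Intervals by clonotypes may thus be too narrow, most of all for anti-CD137 Tpex.

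Use along the locus was uneven, with no steady rise or fall from end to end, and the most used segments lay in the middle. By the mean of the 6 libraries' clonotype shares, TRAJ22 was the most used at 6.91% (4.77 to 8.52% in single libraries), followed by TRAJ26 at 5.26% (4.10 to 6.51%), TRAJ30 at 5.13% (4.94 to 5.37%), TRAJ23 at 4.47% (4.10 to 5.43%) and TRAJ31 at 3.93% (2.76 to 5.22%). An equal share for each segment would be 2.33%. These 5 lie between TRAJ22 and TRAJ31 in the middle of the locus and took 25.7% of clonotypes. The least used were TRAJ35 at 0.52% (0.44 to 0.56%), TRAJ2 at 0.59%, TRAJ5 at 0.79%, TRAJ58 at 1.02% and TRAJ28 at 1.05%. TRAJ28 thus lies among highly used segments. Across the 43 segments, the rank correlation of number and mean clonotype share was -0.073, given as a description. It describes a steady trend only and cannot show a peak in the middle.

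**Figure D1:**
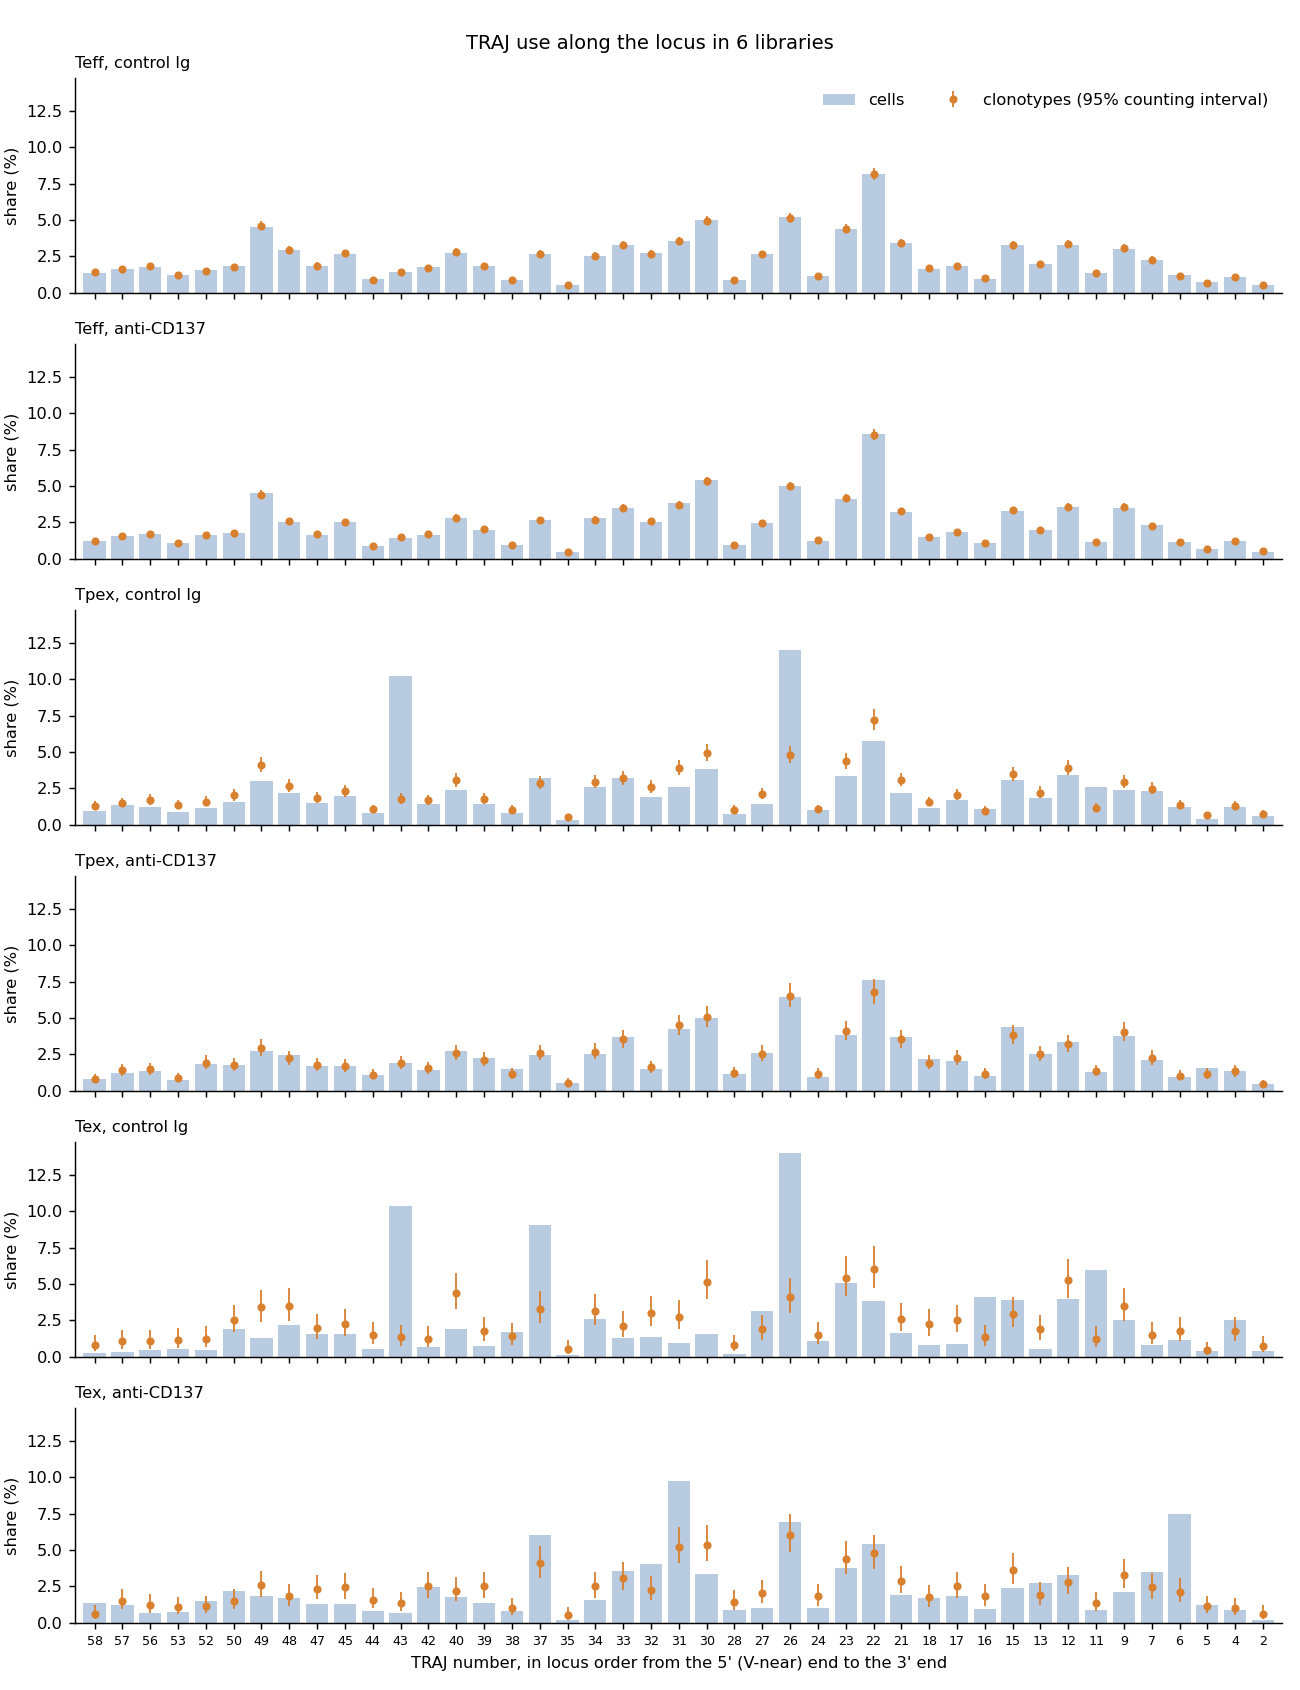
Share of each TRAJ (percent) in 6 libraries, in locus order from TRAJ58 to TRAJ2; bars are shares of cells and points are shares of clonotypes with 95% counting intervals. Bars and points coincide in Teff, while TRAJ43 and TRAJ26 in control Tpex and Tex, and TRAJ31 and TRAJ6 in anti-CD137 Tex, have bars far above their points.

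For zones of the locus, TRAJ numbered 41 or higher were taken as the 5′ zone (13 used segments), 21 to 40 as the middle (17) and 20 or lower as the 3′ zone (13). In control Teff, 25.4% of cells (24.7 to 26.0%) used the 5′ zone, 51.6% the middle and 23.0% the 3′ zone. In anti-CD137 Teff the 5′ share was 24.1% (23.5 to 24.7%). It was 28.2% (27.3 to 29.1%) in control and 20.6% (19.4 to 21.8%) in anti-CD137 Tpex. In Tex it was 22.1% (21.1 to 23.0%) after Ig and 17.7% (16.7 to 18.9%) after anti-CD137. The order by cells thus put control Tpex highest and anti-CD137 Tex lowest.

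With each clonotype counted once, the 6 libraries lay closer together. The 5′ share was 25.5% (24.8 to 26.1%) in control and 24.2% (23.6 to 24.8%) in anti-CD137 Teff, 24.8% (23.6 to 26.0%) and 21.3% (20 to 22.7%) in Tpex, and 23.0% (20.5 to 25.5%) and 21.6% (19.4 to 24.0%) in Tex. In this order control Tpex did not differ from control Teff beyond counting error (-0.688, -2.02 to 0.659), nor did anti-CD137 Tex from anti-CD137 Tpex (0.304, -2.29 to 2.98). Anti-CD137 Tpex minus anti-CD137 Teff was -2.91 percentage points (-4.37 to -1.40).

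**Figure D2:**
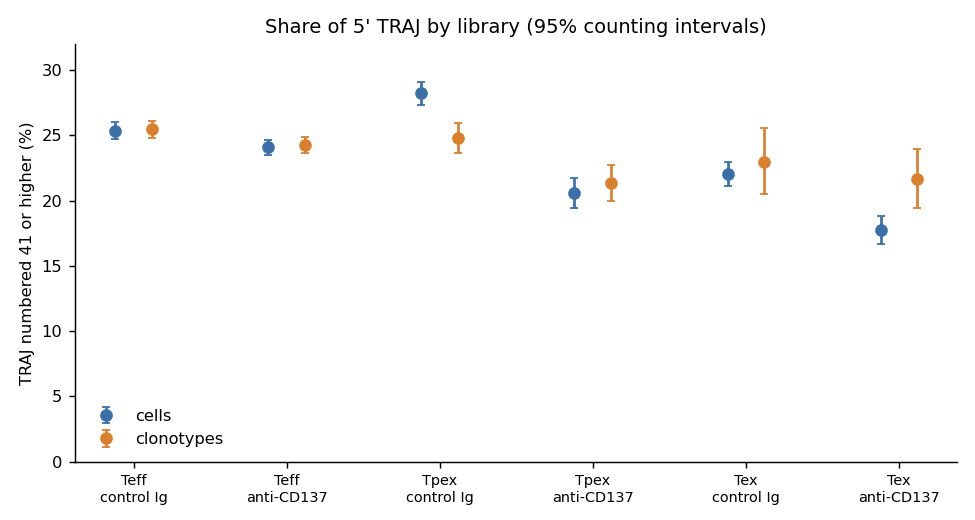
Share of TRA (percent) that used a TRAJ numbered 41 or higher in each library, by cells and by clonotypes, with 95% counting intervals. By cells the shares span 17.7 to 28.2%, and by clonotypes 21.3 to 25.5%.

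The first comparison set anti-CD137 against the control within each subset. In Teff the 5′ share was 1.27 percentage points lower by cells, a difference of -1.27 (-2.14 to -0.406), and -1.23 (-2.12 to -0.343) by clonotypes. It was -0.425 (-1.55 to 0.697) in cells with 1 TRA of at least 3 UMIs and -0.634 (-1.63 to 0.365) where the 5′ zone began at TRAJ31, both with intervals that include 0. In Tpex the difference was -7.65 (-9.12 to -6.16) by cells and -3.45 (-5.23 to -1.65) by clonotypes. In Tex it was -4.31 (-5.73 to -2.87) by cells, but -1.34 by clonotypes, with an interval that includes 0 (-4.72 to 2.02). Without the 10 largest clonotypes of each library it was 1.40, with an interval that includes 0 (-0.387 to 3.20). Where the 5′ zone began at TRAJ31 it turned to 4.95 (3.15 to 6.74). The anti-CD137 Tpex library is the one with the shallowest TRA. Restricted to cells with 1 TRA of at least 3 UMIs, the Tpex difference by cells was -10.2. The part of depth in the Tpex difference by clonotypes was not tested.

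The next comparison set Tex against Teff within each treatment, where the libraries came from the same mice. The 5′ share of Tex was lower by cells, by -3.31 percentage points (-4.42 to -2.18) after Ig and -6.34 (-7.57 to -5.09) after anti-CD137. By clonotypes the differences were -2.49 (-5.01 to 0.160) and -2.60 (-4.88 to -0.207), so that the interval in the control includes 0. With each TRA counted once they were -2.56 (-5.12 to 0.145) and -2.28 (-4.72 to 0.292), both with intervals that include 0. With anti-CD137 the difference by cells was 1.28 where the 5′ zone began at TRAJ31, with an interval that includes 0 (-0.294 to 2.86). The 3′ zone was used more in Tex by clonotypes in both treatments, by 3.88 percentage points (1.22 to 6.66) after Ig and 2.57 (0.138 to 5.10) after anti-CD137. With each TRA counted once these were 3.23 (0.541 to 6.04) and 2.22 (-0.335 to 4.90), so that the interval with anti-CD137 includes 0. Tpex held an intermediate share of 3′ segments in the control, 24.8% of clonotypes against 23.2% in Teff and 27.1% in Tex, and neighbouring Tpex and Tex were not told apart (a difference of 2.31, -0.528 to 5.24). With anti-CD137, Tpex had 26.5% and Tex 26.2%.

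The outermost 5′ segments in use, TRAJ58, TRAJ57 and TRAJ56, were summed after their values were seen. Their sum was 4.85% of clonotypes (4.54 to 5.19%) in control Teff, 4.52% (4.23 to 4.82%) in Teff after anti-CD137, 4.46% (3.92 to 5.04%) and 3.65% (3.06 to 4.32%) in Tpex, and 2.94% (2.03 to 4.10%) and 3.33% (2.43 to 4.44%) in Tex. By cells, control Tex was far below the others, with 1.02% against 3.28 to 4.77%. In Tex these shares rest on 33 and 44 clonotypes.

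Single segments were compared where they reached 1% of TRA in either library, and a fold of 1.5 in either direction was taken as the size to name; with 1 library per group this is a description. In Teff, 0 of 37 TRAJ differed by that fold between the treatments by cells, and 0% of all V and J segments did. Their folds lay between 0.838 and 1.16. In Tpex 13 of 38 TRAJ did by cells, with 39.6% of all segments, and 4 of 41 by clonotypes, with 18.1% of all segments. In Tex 25 of 37 did by cells, with 66.4% of all segments, and 10 of 40 by clonotypes, with 27.2%. Between Tex and Teff, 26 of 38 differed by cells in the control (68.4% of all segments) and 18 of 38 with anti-CD137 (52.6%). By clonotypes these were 10 of 39 (29.6%) and 9 of 40 (31%). The counts of TRAJ were at or below the share of all segments, apart from Tex between treatments by cells (67.6% of TRAJ).

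In control Tpex and Tex, the segments far above Teff were those of a few large clones. TRAJ43 took 10.2% of Tpex and 10.3% of Tex cells against 1.41% of control Teff. After anti-CD137 it took 1.43% of Teff, 1.89% of Tpex and 0.668% of Tex cells. By clonotypes it held 1.34 to 1.91% in all 6 libraries. In the control, 1 clonotype with TRAV6-7-DV9 held 869 of the Tpex and 762 of the Tex cells. TRAJ26 took 12% of control Tpex and 14.0% of control Tex cells, where 1 clonotype with TRAV12-3 held 797 and 702 cells, and 5.0 to 6.89% of cells in the other libraries. TRAJ37, at 9.06% of control Tex cells and 3.29% of clonotypes, had 589 cells in 1 clonotype with TRAV16N. TRAJ11, at 5.96% of cells and 1.25% of clonotypes there, had 379 in 1 with TRAV12D-3. TRAJ16 took 4.10% of control Tex cells, 236 of them in 1 clonotype.

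In anti-CD137 Tex other segments stood out. TRAJ31 took 9.71% of its cells and 5.22% of its clonotypes, against 0.923% and 2.76% in control Tex, a fold of 10.5 by cells and 1.89 by clonotypes. In Teff TRAJ31 took 3.55 and 3.81% of cells. TRAJ6 took 7.5% of anti-CD137 Tex cells against 0.944 to 1.25% in the other 5 libraries, with 213 of its 359 cells in 1 clonotype with TRAV13-2. Further segments higher by cells than in control Tex were TRAJ13 (2.74 against 0.506%), TRAJ58 (1.36 against 0.266%) and TRAJ7 (3.47 against 0.772%). TRAJ13 had 78 of its 131 cells in 1 clonotype and near equal shares by clonotypes, 1.89 against 1.87%. TRAJ7 had 64 of its 166 cells in 1 clonotype, and 2.42 against 1.51% by clonotypes. TRAJ58 had 50 of its 65 cells in 1 clonotype and was lower by clonotypes, at 0.605 against 0.801%. Lower by cells, beside TRAJ43, TRAJ11 and TRAJ16, were TRAJ27 (1.02 against 3.14%) and TRAJ4 (0.856 against 2.52%).

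The CDR3s of the largest clonotypes show how much of the germline J was kept, with the part that matches the germline TRAJ in capitals up to the first framework codon.
TRAJ43 with TRAV6-7-DV9, control Tpex and Tex: tgtgctctgaggAACAATGCCCCACGATTT
TRAJ26 with TRAV12-3, control Tpex and Tex: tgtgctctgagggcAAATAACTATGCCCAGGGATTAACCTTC
TRAJ37 with TRAV16N, control Tex: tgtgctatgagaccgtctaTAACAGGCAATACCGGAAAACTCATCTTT
TRAJ11 with TRAV12D-3, control Tpex and Tex: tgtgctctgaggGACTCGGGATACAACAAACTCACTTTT
TRAJ6 with TRAV13-2, anti-CD137 Tex: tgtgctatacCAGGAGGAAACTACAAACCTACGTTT
TRAJ22 with TRAV3N-3, anti-CD137 Tpex and Tex: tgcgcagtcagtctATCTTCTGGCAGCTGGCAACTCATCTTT
TRAJ31 with TRAV3-3 or TRAV3N-3, anti-CD137 Tex: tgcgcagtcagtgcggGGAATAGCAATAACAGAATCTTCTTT
TRAJ26 with TRAV16D-DV11, control Teff: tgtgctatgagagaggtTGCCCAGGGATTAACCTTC
TRAJ49 with TRAV4-3, anti-CD137 Teff: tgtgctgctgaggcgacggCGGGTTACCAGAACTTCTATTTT
The TRAJ43 clone lacked 8 bases of the germline 5′ end and the TRAJ26 clone of control Tpex and Tex 1 base, while TRAJ31 was whole. The largest clonotypes of Teff held 13 cells after Ig and 23 after anti-CD137, and the largest of anti-CD137 Tpex, with TRAJ22, held 46. The TRAJ31 sequence was shared by clonotypes of 103 and 99 cells that differed in TRB. In all, 221 anti-CD137 Tex cells carried it with 4 different TRB CDR3s.

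In Tpex, TRAJ5 was the 1 segment past the fold between treatments both by cells and by clonotypes in the same direction. It took 1.56% of cells after anti-CD137 against 0.413% after Ig, and 1.15 against 0.634% of clonotypes. The counting intervals by clonotypes overlapped, and its largest clonotype held 15 of 71 anti-CD137 cells. Higher by cells alone were TRAJ18 (2.15 against 1.15%), TRAJ38 (1.47 against 0.815%), TRAJ27 (2.57 against 1.45%) and TRAJ21 (3.67 against 2.20%), and lower were TRAJ43, TRAJ11 and TRAJ26. By clonotypes alone TRAJ32 was lower past the fold, at 1.60 against 2.61%, with intervals that did not overlap. In Tex, TRAJ5, TRAJ31, TRAJ42 and TRAJ7 were higher and TRAJ4 lower with anti-CD137 by both units. By clonotypes the intervals overlapped for all of these except TRAJ31. By clonotypes alone TRAJ12 (2.80 against 5.25%) and TRAJ40 (2.19 against 4.36%) were lower past the fold, with intervals that did not overlap. TRAJ5 had 15 clonotypes against 5, and the 5 in control Tex held 1 cell each although 29 cells carried TRAJ5 there, the rest without a TRB. TRAJ42 took 2.46 against 0.670% of cells and 2.50 against 1.25% of clonotypes.

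Between Tex and Teff, segments past the fold by cells and by clonotypes differed with the treatment. In the control they were TRAJ58, TRAJ57, TRAJ56 and TRAJ33, lower in Tex, and TRAJ38 and TRAJ4, higher. The counting intervals by clonotypes overlapped for all 6, and TRAJ58 rested on 9 Tex clonotypes and TRAJ57 and TRAJ56 on 12 each. Past the fold by clonotypes but not by cells, TRAJ12 and TRAJ40 were higher in control Tex, with intervals that did not overlap. TRAJ12 took 5.25% of Tex and 3.34% of Teff clonotypes, and TRAJ40 4.36 and 2.78%. By clonotypes TRAJ58 was at 0.801% in Tex and 1.40% in Teff, TRAJ57 at 1.07 and 1.65%, and TRAJ56 at 1.07 and 1.80%. With anti-CD137 the segments past the fold by both units were TRAJ22 and TRAJ49, lower, and TRAJ37, TRAJ6 and TRAJ5, higher. Among these the intervals by clonotypes overlapped for TRAJ5. TRAJ22, the most used segment, had lower shares from subset to subset by clonotypes in both treatments: 8.14% in Teff, 7.20% in Tpex and 6.06% in Tex in the control, and 8.52, 6.79 and 4.77% with anti-CD137. TRAJ49, the most used of the 5′ zone, took 4.59, 4.10 and 3.38% in the control and 4.40, 2.95 and 2.57% with anti-CD137. TRAJ37 had 2.65, 2.89 and 3.29%, and 2.63, 2.58 and 4.08%. The 2 series come from different mice and each has 1 library per point.

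TRAJ use varied with the position of the joined TRAV, most clearly among the TRAV nearest to the TRAJ. The 89 TRAV found were put in order of their start on chromosome 14 and split into a J-distal group of 30 (TRAV1 to TRAV10N, from 52427928), a central group of 30 (TRAV6N-6 to TRAV9-1, from 53132679) and a J-proximal group of 29 (TRAV6-5 to TRAV21-DV12, 53491115 to 53876752). In control Teff, clonotypes of the J-distal group had a mean TRAJ number of 25.5, those of the central group 24.4 and those of the J-proximal group 38.3. The J-distal, central and J-proximal means were 24.8, 24.1 and 38.1 in anti-CD137 Teff. They were 25.3, 24.4 and 37.9 in control Tpex and 24.5, 23.6 and 36.7 in anti-CD137 Tpex. In Tex they were 23.4, 24.4 and 36.9 in the control and 25.1, 24.1 and 36.7 with anti-CD137. The J-proximal group was thus 11.6 to 13.5 numbers higher than the J-distal group in the 6 libraries.

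The same was seen in zones. The 5′ zone held 46.9% of J-proximal clonotypes in control Teff (45.7 to 48.1%) against 13.9% of J-distal ones (12.8 to 15.0%), a difference of 33 percentage points (31.4 to 34.7). The differences in the other libraries were 33.9 in anti-CD137 Teff, 29.9 and 27.0 in control and anti-CD137 Tpex, and 31.5 and 26.5 in Tex. The 3′ zone held 7.18% of J-proximal clonotypes in control Teff and 32.6% of J-distal ones.

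Within the J-proximal group the mean was higher for TRAV nearer to the TRAJ. In control Teff the mean TRAJ number was 28.1 for TRAV6-5, at 663.9 kb before the first TRAJ, 34.1 for TRAV13-1 at 610.0 kb, 43.1 for TRAV5-4 at 451.0 kb, 45.7 for TRAV16 at 411.9 kb, 49.5 for TRAV19 at 309.8 kb and 50.3 for TRAV21-DV12, the nearest, at 279.0 kb. Of 135 control Teff clonotypes with TRAV21-DV12, 88.9% used the 5′ zone and 0 the 3′ zone, where the exact interval reaches 2.70%. Of 67 with TRAV1, the farthest, 2.99% used the 5′ zone and 29.9% the 3′ zone, with a mean TRAJ number of 23.6. Across clonotypes, the rank correlation of TRAV position with TRAJ number was 0.394 to 0.458 in the 6 libraries. It was 0.359 to 0.424 within the J-proximal group, and -0.0159 to 0.102 over the J-distal and central groups together. These correlations are across clonotypes that share a library and are given as descriptions.

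**Figure D3:**
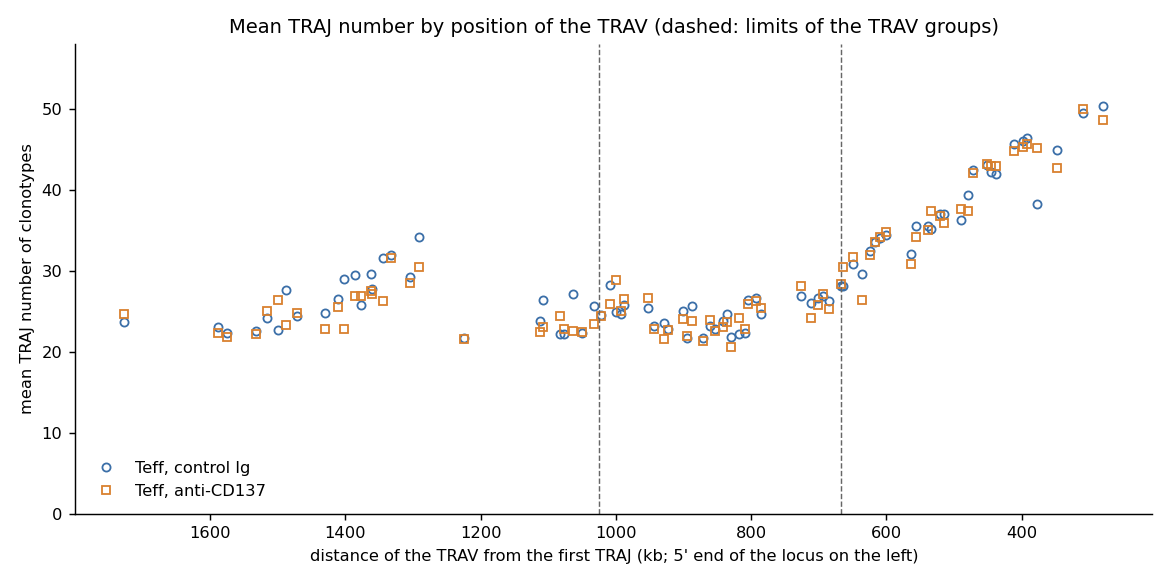
Mean TRAJ number of clonotypes for each TRAV with at least 20 clonotypes, against the distance of the TRAV from the first TRAJ (kb), in control (circles) and anti-CD137 Teff (squares); dashed lines part the 3 groups of TRAV. Means climb from 28.1 at TRAV6-5 to about 50.3 at TRAV21-DV12 in the J-proximal group, and a smaller rise is seen among J-distal TRAV near 1333 kb.

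Names of TRAV limit this picture, because the mouse V region holds copies of the same segments. Of the 89 TRAV, 20 were identical in sequence to another annotated TRAV and 42 had a copy at 98% identity or more. For all 20 the identical copy lies in another of the 3 groups, mostly a central and a J-distal segment, and for 18 it is named in 0 cells. The near-zero correlation over the J-distal and central groups therefore rests in part on positions that the names cannot give. TRAV6D-6, a J-distal segment at 1333 kb, had a mean TRAJ number of 32 in control Teff, above most J-distal segments. Its sequence is identical to TRAV6-6, found in 0 cells, which lies 695.0 kb nearer to the TRAJ. TRAV10D, with a mean of 31.6, differs by 3 bases from TRAV10, which lies 694.8 kb nearer and had a mean of 30.8. The part of such naming in the J-distal rise was not tested. Among the 13 TRAV without a copy at 95% identity, the J-distal mean was lower than the J-proximal mean by 24.0 to 25.8 numbers in the 6 libraries. The J-proximal ones among the 13 are TRAV17, TRAV18, TRAV19 and TRAV21-DV12, the nearest to the TRAJ. The J-distal ones lie mostly at the far end, but include TRAV8D-2 and TRAV9D-4 further in. The difference thus sets the J end of the V region against J-distal TRAV and does not measure the effect of copies. This choice was made after seeing the data.

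Read from the J side, the TRAV partners changed gradually along the TRAJ. A J-proximal TRAV was joined in 83.0% of TRAJ56 clonotypes (mean of 6 libraries, 78.8 to 91.7%), 81.5% of TRAJ57 (75 to 86%) and 74.4% of TRAJ58 (55.6 to 100%). It was joined in 66.6% of TRAJ49, 49.3% of TRAJ37, 31.3% of TRAJ30 and 19.6% of TRAJ22 clonotypes. From TRAJ13 downwards the share lay between 8.05% (TRAJ4) and 12.9% (TRAJ11), apart from TRAJ2, the last in use, at 17.7% (11.8 to 37.5%) from 8 to 97 clonotypes a library. The decrease thus ran over the 5′ zone and the middle and went on less evenly into the 3′ zone. There the means were 13.6% for TRAJ18, 18.2% for TRAJ17, 19.3% for TRAJ16, 14.3% for TRAJ15 and 10.7% for TRAJ13. Every mean in the 3′ zone was below 20%.

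**Figure D4:**
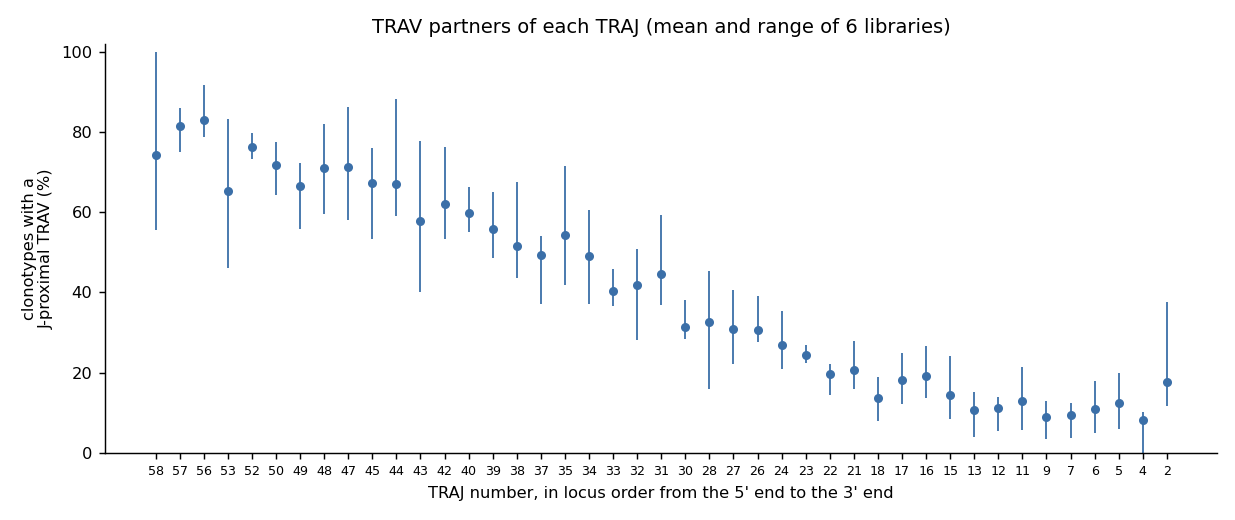
Share of clonotypes (percent) of each TRAJ that were joined to one of the 29 J-proximal TRAV, as the mean of 6 libraries (points) with their range (lines), in locus order. The share falls from 83.0% at TRAJ56 to 19.6% at TRAJ22, and is 10.7% at TRAJ13 and 8.86% at TRAJ9.

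Within the groups of TRAV, Tex and Teff were compared again by clonotypes. Among J-proximal TRAV, the 5′ share of Tex was lower in both treatments, by -5.10 percentage points (-9.89 to -0.213) after Ig and -4.96 (-9.55 to -0.251) after anti-CD137. Tpex lay at -2.16 (-4.66 to 0.344) and -5.07 (-7.97 to -2.13) from Teff. Among J-distal TRAV the Tex difference was -3.60 (-7.34 to 1.15) after Ig and 2.43 (-1.50 to 7.11) after anti-CD137, and among central TRAV -0.285 and -0.914, all with intervals that include 0. Anti-CD137 Tpex differed from Teff by -1.89 (-3.45 to -0.195) among central TRAV. The 3′ share was higher in control Tex than Teff both among J-distal TRAV, by 7.16 (0.668 to 13.9), and among J-proximal TRAV, by 2.94 (0.217 to 6.18). With anti-CD137 these were 1.92 (-3.85 to 7.97) and 1.41 (-1.01 to 4.34). Whether the groups of TRAV differ in these differences was not tested. J-proximal TRAV made up 38.4% of control Teff and 39.6% of control Tex clonotypes, and 38.5 and 35.9% with anti-CD137.

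A T cell can carry a joint on each chromosome, and the positions of 2 TRA read from the same barcode were compared. Doublets were not called, and a second chain can also come from another cell or from free RNA, whose part was not tested. Counted once per clonotype, the TRAJ numbers of both chains differed by a mean of 11.8 in control Teff (2794 clonotypes), against 15.8 for chains taken from different cells of that library. The values were 11.9 and 15.9 in anti-CD137 Teff, 10.6 and 15.8 in control Tpex, 8.50 and 15.7 in control Tex (175 clonotypes), and 11.5 and 16.2 in anti-CD137 Tex (192). In these 5 libraries the means were thus lower within a barcode than between cells. In anti-CD137 Tpex they were at 14.9 and 16.1. Where the second TRA had at least 3 UMIs, they were at 11.2 and 15.9 there, from 75 clonotypes. Where the main TRA used the 5′ zone, the second did so in 45.9% of control Teff clonotypes, against 23.2% in all. The rank correlation of both numbers was 0.366 in control Teff and 0.128 in anti-CD137 Tpex, where it was 0.428 with at least 3 UMIs, given as descriptions.

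**Figure D5:**
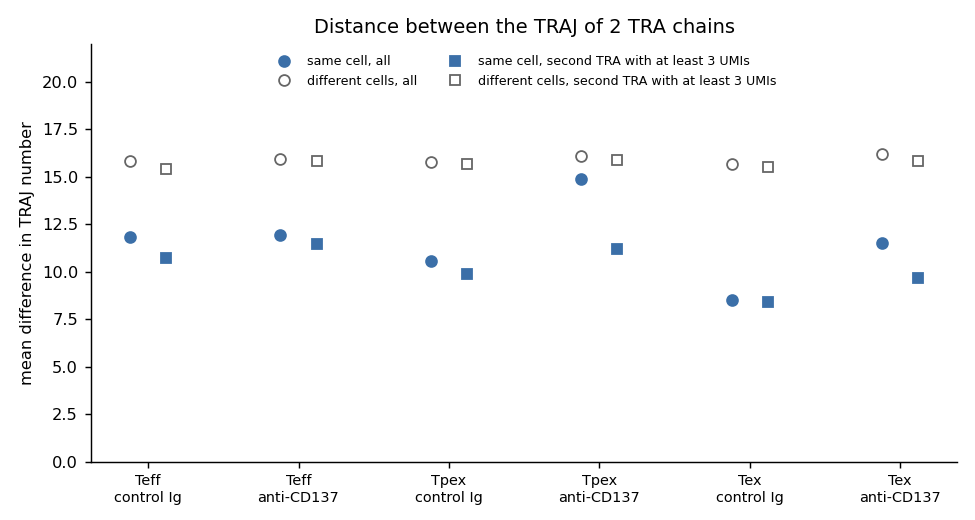
Mean difference in TRAJ number between 2 TRA chains of the same cell (filled) and of different cells (open), for all cells with 2 TRA (circles) and for those whose second TRA had at least 3 UMIs (squares), in 6 libraries. Chains of the same cell lie at 8.50 to 11.9 in 5 libraries and at 14.9 in anti-CD137 Tpex, where the value is 11.2 with at least 3 UMIs.

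By the authors' clusters, which are called by number because no gene values were used here, Teff cells of clusters 0 and 2 differed slightly. The 5′ zone was used by 26.9% of control Teff cells in cluster 2 and 24.0% in cluster 0, a difference of 2.90 percentage points (1.54 to 4.25), while anti-CD137 Teff had 25.7 and 22.1%, which differ by 3.57 (2.32 to 4.81). By clonotypes the differences were 2.68 (1.30 to 4.07) and 3.40 (2.14 to 4.67). The 3′ zone went the other way, with -2.84 (-4.18 to -1.50) and -3.46 (-4.73 to -2.19) by clonotypes. In Teff this was the only cluster contrast computed. Cluster 8 of control Teff had 20% (14.8 to 26.1%) of 210 cells in the 5′ zone.

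In Tpex, clusters 5 and 1 were compared. The 5′ share by cells differed by -3.46 (-8.14 to 1.68) after Ig and -0.616 (-3.94 to 2.95) after anti-CD137. By clonotypes it differed by 1.11 (-3.90 to 6.58) and 0.491 (-3.32 to 4.59). The 3′ share by cells differed by 6.00 (1.05 to 11.3) after Ig and -2.16 (-5.78 to 1.66) after anti-CD137. By clonotypes the 3′ share differed by 3.33 (-1.83 to 8.92) and -0.660 (-4.76 to 3.68). In Tex, cluster 4 differed from cluster 3 by 4.49 percentage points (0.973 to 8.21) after Ig and by -3.66 (-6.47 to -0.972) after anti-CD137 by cells. By clonotypes these were -1.14 (-7.31 to 5.76) and 1.78 (-2.69 to 6.06).

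By clone size, the 5′ share depended on which clones were large. In control Tpex, cells of clonotypes of at least 5 cells used the 5′ zone in 33.5% of cases against 24.5% for clonotypes of 1 cell, a difference of 8.99 percentage points (6.99 to 11). In anti-CD137 Tpex the shares were 12.5 and 21.8%, a difference of -9.25 (-13.2 to -4.56). In Tex the differences were 0.685 (-2.84 to 3.95) after Ig and -6.89 (-10.1 to -3.87) after anti-CD137. With each clonotype counted once they were -0.160 and -5.67 in Tpex and 1.70 and -3.65 in Tex, all with intervals that include 0. Clonotypes of at least 20 cells were few. In control Tpex there were 18, of which 2 used the 5′ zone, yet their cells did so in 38.9% of cases. In control Tex there were 62, with 16.1% (8.02 to 27.7%) in the 5′ zone, and in anti-CD137 Tex 31, with 19.4% (7.45 to 37.5%). Among Tex clonotypes of 1 cell the shares were 20.9% (17.8 to 24.2%) and 21.7% (18.9 to 24.6%).

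The mean number of germline bases missing at the 5′ end of the J ran from 1.44 for TRAJ47 to 5.02 for TRAJ39 (means over 6 libraries). A germline base can also be matched by chance at the joint, so these are lower limits. TRAJ22 was whole in 49.1% of its clonotypes and TRAJ12 in 46.0%, but TRAJ45 in 5.22%. By zone the means were 2.99 to 3.20 in the 5′ zone, 2.56 to 2.91 in the middle and 2.72 to 2.86 in the 3′ zone over the libraries. Longer germline segments gave longer CDR3s, with a rank correlation of 0.868 across the 43 segments. Mean CDR3 length was 46.3 bases for TRAJ2 and 37.0 for TRAJ31, which have 66 and 57 germline bases.

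A whole TRAJ22 joined to TRAV14 segments gave the TRA that was found with the most different TRBs, and it was singled out after the values were seen.
TRAJ22 with TRAV14 segments: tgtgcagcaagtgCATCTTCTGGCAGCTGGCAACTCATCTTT
It was carried by 90 paired control Teff cells with 87 TRB CDR3s and by 132 anti-CD137 Teff cells with 128. In Tpex it had 28 TRBs in 38 control cells and 14 in 15 anti-CD137 cells. In control Tex 15 cells had 6, and anti-CD137 Tex held 0 cells. These were 5.79 to 8.82% of the TRAJ22 clonotypes of the 5 libraries that held it. In anti-CD137 Tex it was 0 of 63, with an exact upper limit of 5.69%. The other shares also carry counting error, so that this limit does not set anti-CD137 Tex apart, and the difference was not tested. All cells with this TRA had a TRAV14 segment, under 7 names in both Teff libraries.

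Invariant receptors use fixed segments and mark other lineages of T cells. TRAJ18 joined to a TRAV11 segment, as in invariant natural killer T cells, was seen in 4 of 17851 Teff cells after Ig (0.0224%) and 17 of 20856 after anti-CD137 (0.0815%). Tpex held 3 and 4 such cells and Tex 0, for which 3 counts would be 0.0379% after Ig and 0.0626% after anti-CD137 and the exact upper limits are 0.0466 and 0.0770%. The 17 cells held 5 different CDR3s. TRAJ33 joined to TRAV1, as in mucosal-associated invariant T cells, was found in 2 control and 7 anti-CD137 Teff cells and in 0 Tpex and Tex cells. TRAJ18 was used by 0.810 to 2.15% and TRAJ33 by 1.32 to 3.71% of cells, so that invariant pairs were a small part of either segment.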

How the data were processed

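Receptors of sorted CD8+ T cells were read from 12 samples, a transcript and a receptor library for each of 6 groups of 1. Per the submitters' processing notes, Cell Ranger 3.0.2, Seurat 4.0.0 and build mm10 were used. The deposited receptor table gives the count of UMIs for each contig, and the deposited cell table the count of UMIs for each cell with the authors' cluster. Barcodes within a library linked contigs to cells, and the TRA and TRB with the most UMIs were kept. The sources used here do not say what was done about doublets, none were called here, and an alternative left out cells with 2 TRA.

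Positions and germline sequences came from GENCODE M21 (GRCm38, the assembly called mm10), counted from 1. Differences are first minus second by Newcombe's square-and-add method on Clopper-Pearson intervals (scipy 1.17.1, pandas 2.3.3, Python 3.11.15). No test was run. Samples that share a treatment share mice.

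The named TRAJ were the 5 most and 5 least used by mean clonotype share, up to 5 per direction and comparison by fold at 1% and 1.5 fold by cells, TRAJ18 and TRAJ33, those of each library's largest clonotype, and J genes with no cell. Other segments named, such as TRAJ12, TRAJ32, TRAJ40, TRAJ42, TRAJ49 and those at the ends of a range, were chosen after their values were seen. Members, lists and comparisons were chosen with earlier results of these data known. The interval of a difference and the fold rule were tried on simulated libraries of Teff size. Their cells were drawn independently, without clones, so this does not cover the Tpex and Tex libraries with their large clones. Alternatives varied the unit, cells, clonotypes, zone, fold, share minimum and TRAV grouping.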

Additional observations from a re-analysis of the deposited data

Results flagged for a closer look

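In Tex by cells, the 5′ TRAJ share of cluster 4 minus that of cluster 3 was 4.49 percentage points in the control and -3.66 with anti-CD137, so that the libraries of the treatments moved in opposite directions, with 1 library each. The difference between them was not tested.

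In Tpex by cells, the 5′ share of clonotypes of at least 5 cells minus that of clonotypes of 1 cell was 8.99 percentage points in the control and -9.25 with anti-CD137. This difference was not tested either. In control Tpex, 869 of the 3722 cells in clonotypes of at least 5 cells carried the 1 TRAJ43 clonotype.

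Receptor barcodes outside the cell table were not used in the comparisons. In the anti-CD137 Tpex library there were 7785 of them with a TRA, more than the 4556 cells in the table, with a median of 1 TRA UMI. Their 5′ share was 21.2% (20.3 to 22.1%), and that of the tabled cells was 20.6% (19.4 to 21.8%).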

How the results depend on the processing

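No paired analysis was run, each group has 1 library, and the labels give no replicate numbers. A fit over the 6 libraries with subset or treatment as a block was not run either. With 1 library a group, none could be left out. Of 103 alternatives to 20 results, 3 reversed a direction. Among these, only the Tex treatment difference with the zone from TRAJ31 had an interval without 0. With the 5′ zone from TRAJ31, its shares were 46.1 and 45.4% in control and anti-CD137 Teff, 46.7 and 41.9% for Tpex, and 41.8 and 46.7% for Tex. The treatment differences were then -0.634 (-1.63 to 0.365) in Teff, -4.78 in Tpex and 4.95 (3.15 to 6.74) in Tex (reversed). Anti-CD137 Tex minus Teff was 1.28 (reversed), with an interval that includes 0 (-0.294 to 2.86). This zone takes in TRAJ31, with 9.71% of anti-CD137 Tex, 0.923% of control Tex and 3.81% of anti-CD137 Teff cells. It also takes in segments that were lower in Tex with anti-CD137, such as TRAJ37, at 6.01 against 9.06% of cells. With each clonotype counted once, shares moved to 24.8% in control Tpex and 21.6% in anti-CD137 Tex, treatment differences to -3.45 in Tpex and -1.34 in Tex, and anti-CD137 Tex minus Teff to -2.60. With each TRA counted once, shares were 24.7% in anti-CD137 Teff, 25% in control Tpex, and 23.1 and 22.4% in control and anti-CD137 Tex, treatment differences -3.31 in Tpex and -0.649 in Tex, and anti-CD137 Tex minus Teff -2.28. Without the 10 largest clonotypes, shares were 24.8% in control Tpex and 22.6% in anti-CD137 Tex. Treatment differences were then -3.91 in Tpex and 1.40 (-0.387 to 3.20) in Tex (reversed), and anti-CD137 Tex minus Teff was -1.52. With 1 TRA of at least 3 UMIs, shares were 24.6% in control Teff and 29.3 and 19.2% in control and anti-CD137 Tpex, with a Tpex difference of -10.2 and a Teff difference of -0.425 (-1.55 to 0.697). The cause of these changes was not tested.

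The 13 TRAJ past 1.5 fold in Tpex became 3 at 2 fold, 4 by clonotypes and 4 without the 10 largest clonotypes. The 25 in Tex became 21 at 2 fold and 10 by clonotypes, and stayed 25 without the 10 largest clonotypes. At 2 fold and without the 10 largest clonotypes, the share of all V and J segments was not computed. In Teff the count was 0 in each setting. J-distal minus J-proximal TRAV, as mean TRAJ number in the order control and anti-CD137 Teff, Tpex and Tex, was -12.8, -13.3, -12.5, -12.2, -13.5 and -11.6. With the TRAV split into only 2 groups it was -9.81, -9.98, -9.99, -9.07, -10.9 and -8.16. Without D and N copies, the remaining 43 TRAV were split anew into 3 groups, and it was -18.1, -18.1, -17.3, -16.5, -15.4 and -15.4. The outer groups then hold other TRAV than before, so these values do not measure the effect of copies. With the 13 TRAV that lack a copy at 95% identity, chosen after seeing the data and the J-proximal ones all at the J end, the difference was -25.1, -24.9, -25.8, -24.0, -25.3 and -24.0. By cells it moved in control Tex, to -16.0. Few clonotypes in Tex and few TRA UMIs in anti-CD137 Tpex limit the precision.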

Other observations

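The J segment of the beta chain was set beside TRAJ position as a value from another chromosome. TRBJ segments lie in 2 clusters, of which TRBJ2 lies downstream. By clonotypes, the 5′ TRAJ share was higher with a TRBJ2 than with a TRBJ1 segment in 6 of 6 libraries. It was 26.1 against 24.0% in control Teff, a difference of 2.18 percentage points (0.770 to 3.58), and 25.1 against 22.4% in anti-CD137 Teff, a difference of 2.69 (1.40 to 3.96). In control Tpex it was 26.6 against 21.1%, a difference of 5.45 (3.00 to 7.84). The intervals included 0 in anti-CD137 Tpex (0.303, -2.74 to 3.24), control Tex (4.15, -1.21 to 9.26) and anti-CD137 Tex (0.732, -4.37 to 5.56). For comparison, J-proximal and J-distal TRAV differed by 26.5 to 33.9 percentage points.

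TRA sequences with several V names occurred in all 6 libraries, mostly within 1 V family. In anti-CD137 Tpex the TRAJ21 CDR3 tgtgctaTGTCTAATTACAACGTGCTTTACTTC, with germline J bases in capitals, was found in 15 of its paired cells with 9 TRBs and with TRAV12-1, TRAV13N-4, TRAV6N-7 and TRAV8N-2.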
